A study of Rattus norvegicus with 6 samples.

Results

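The transcription factor p53 is held at a low level by the ubiquitin ligase MDM2 and is released from it when DNA is damaged or the cell is otherwise stressed. It then binds DNA and switches on genes that halt the cell cycle, repair DNA or trigger death, and one of its targets is Mdm2 itself, which closes a feedback loop. In brain microglia, the resident macrophages, these genes are read as a sign of genotoxic stress or senescence, although several of them also answer to other transcription factors. Here 10 direct p53 targets of arrest and death were followed, chosen by name as Fas, Ccng1, Cdkn1a, Mdm2, Bax, Bbc3, Pmaip1, Sesn1, Phlda3 and Tp53inp1, out of 16876 gene symbols in the count table. All 10 were in the table and all 10 passed the filter on low counts.

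The 6 RNA libraries carry the label of rat (Rattus norvegicus) microglia in primary culture. By their titles, cells of 3 libraries spent 24 h with polystyrene nanoplastics (PSNPs) and those of the other 3 with IR-813, a dye of near-infrared absorption. The count columns of the IR-813 samples are named con. The titles were followed here, and IR-813 was taken as the reference. Both groups were grown in serum-containing medium and shaken loose from mixed glial co-cultures, and strain, animal age, dose and the number of animals are not given in the labels. No title names untreated cells, so higher or lower means with PSNPs relative to the libraries titled IR-813. Nothing in the labels says that replicates came from separate cultures, and p-values then measure only the spread between these libraries, which may be technical. Levels are in CPM, the counts scaled to a common library size with TMM factors, and a gene was called when its Benjamini-Hochberg adjusted p was under 0.05 in edgeR's quasi-likelihood test over 11679 genes.

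Libraries held between 19166605 and 22553507 counts. PSNPs replicate 3 stood apart: its log CPM correlated with PSNPs replicates 1 and 2 at 0.974 and 0.971 across genes, whereas replicates 1 and 2 correlated at 0.995. Against the other PSNPs libraries, its genes in the shortest, middle and longest of 3 equal classes of a length proxy had median log2 ratios of 0.29, 0.06 and −0.31. The microglia markers Aif1, Cx3cr1 and P2ry12 ranked between 3796 and 10894 among all genes, while the astrocyte gene Gfap ranked between 7 and 18 and the myelin gene Mbp between 21 and 56. Over all tested genes 20.9% were called higher and 20.1% lower with PSNPs, the background for the marker counts that follow. Of the microglia markers 7 of 8 were lower with PSNPs and 0 higher. Their summed level ranged from 786 to 1038 CPM with IR-813 and from 465 to 600.2 CPM with PSNPs. The 9 astrocyte markers (5 higher, 0 lower) summed to 6450–8249 and 7743–8535 CPM, and the 10 oligodendrocyte-lineage markers (0 higher, 10 lower) to 5706–6644 and 3260–3739 CPM. The 9 neuron markers (0 higher and 6 lower of 8 tested) summed to 354–371 and 161–194 CPM, with Slc17a7 at 0 in 4 libraries. The 8 fibroblast, pericyte and endothelial markers (0 higher and 2 lower of 5 tested) summed to 75.2–127 and 74.4–85.2 CPM, with Cldn5 at 0 in 5 libraries and Lum and Dcn at 0 in 2 libraries each. In bulk RNA, fewer cells of a type and less RNA per cell cannot be told apart, and the part of these shifts in the values of the p53 targets was not tested.

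With PSNPs, 5 of the 10 genes rose and 0 fell, counts that were the same in edgeR at an unadjusted p under 0.05 and in DESeq2. They were the death receptor gene Fas, the pleckstrin-homology gene Phlda3, the cyclin gene Ccng1, the CDK inhibitor gene Cdkn1a and the pore-forming gene Bax, with rises between 1.63-fold (Bax) and 2.48-fold (Fas). The other 5, Mdm2, Sesn1, Bbc3, Tp53inp1 and Pmaip1, did not pass. Over all tested genes 20.9% were called higher and 20.1% lower, or 41.0% in either direction, so 5 of 10 stands beside a background of 20.9%. Of all tested genes, 9.08% were both called higher and at least as high in log2 fold change as Bax, the smallest of the 5. The 10 genes were not tested as a set, since they were chosen with earlier results of these data known. The median log2 fold change was 0.42 for the 10 genes and −0.01 for all tested genes. For the 5 genes that rose, the 3 PSNPs libraries lay above the 3 IR-813 libraries, which also held, in either direction, for 61.4% of all tested genes. The other 5 overlapped between groups.

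**Figure D1:**
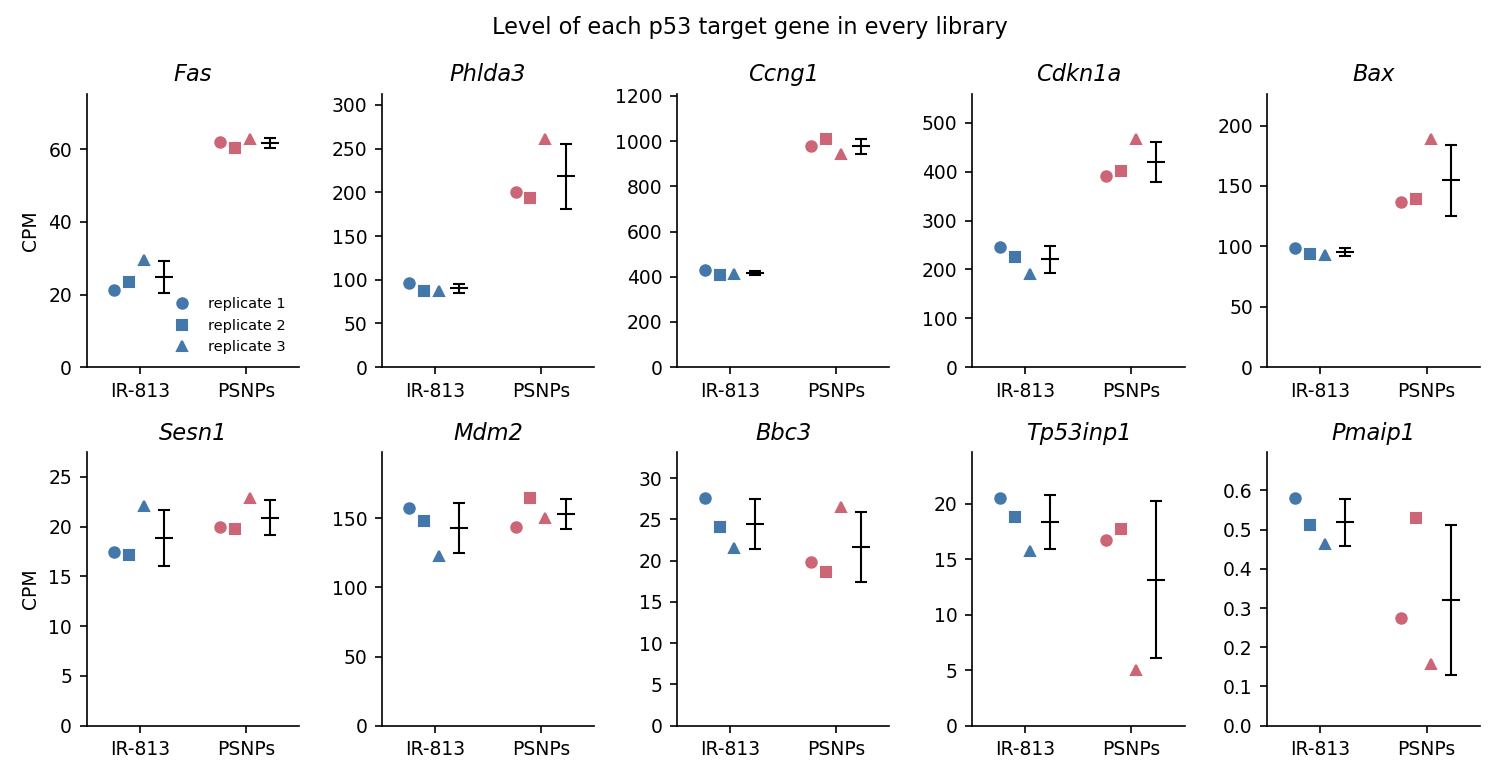
Level of each of the 10 p53 target genes in every library, in CPM on axes that start at 0. Symbols mark replicates 1 to 3, and the black bar is the mean with its SD (n = 3 per group). In the upper row all PSNPs libraries lie above all IR-813 libraries, and in the lower row the groups overlap.

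Promoter windows from RefSeq (rat build GRCr8, a different build from the one used for counting) were matched to 7 of the 10 genes. They are shown to let the promoter letters be read beside the values. The genes were chosen as known direct targets of p53, so the matches are not independent of that choice and are given as a description only. Each window of 300 bases, from 250 before the annotated start to 50 after it, was searched for the p53 consensus decamer, the 10-base element of which p53 binds a pair, and the consensus is palindromic, so one strand covers both. A perfect decamer was present in the windows of 3 of the 7 genes, Ccng1, Cdkn1a and Sesn1, and in 7.98% of all 33469 windows. Adjoining decamers with at most 1 mismatch over their 20 bases were present for Ccng1 and Cdkn1a, and in 0.042% of all windows. A match is a description of these letters and not a measured binding site. Sequence outside the windows was not searched, so a window without a match does not mean a gene without a p53 site. The 250 bases before the start are printed 5′ to 3′ for these genes and for Fas, which rose and whose window held no perfect decamer. Capitals mark the perfect decamer and, where present, its adjoining partner.
Ccng1 (GRCr8 chr10:25684877-25685126, minus strand): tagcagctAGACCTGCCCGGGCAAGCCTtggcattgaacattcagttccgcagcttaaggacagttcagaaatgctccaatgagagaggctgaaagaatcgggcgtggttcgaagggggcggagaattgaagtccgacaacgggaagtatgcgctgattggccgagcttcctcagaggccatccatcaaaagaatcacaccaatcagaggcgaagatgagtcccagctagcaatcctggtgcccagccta
Cdkn1a (GRCr8 chr20:7150682-7150931, plus strand): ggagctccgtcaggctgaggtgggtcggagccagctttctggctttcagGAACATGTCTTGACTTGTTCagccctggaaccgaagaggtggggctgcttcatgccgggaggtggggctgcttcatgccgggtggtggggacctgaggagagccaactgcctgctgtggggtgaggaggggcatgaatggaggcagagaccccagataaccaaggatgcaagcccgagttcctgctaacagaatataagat
Sesn1 (GRCr8 chr20:46948469-46948718, plus strand): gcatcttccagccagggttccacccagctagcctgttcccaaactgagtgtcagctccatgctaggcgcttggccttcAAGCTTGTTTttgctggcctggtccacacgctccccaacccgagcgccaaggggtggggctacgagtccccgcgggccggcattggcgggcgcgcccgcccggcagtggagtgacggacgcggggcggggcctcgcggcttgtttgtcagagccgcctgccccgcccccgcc
Fas (GRCr8 chr1:241211905-241212154, plus strand): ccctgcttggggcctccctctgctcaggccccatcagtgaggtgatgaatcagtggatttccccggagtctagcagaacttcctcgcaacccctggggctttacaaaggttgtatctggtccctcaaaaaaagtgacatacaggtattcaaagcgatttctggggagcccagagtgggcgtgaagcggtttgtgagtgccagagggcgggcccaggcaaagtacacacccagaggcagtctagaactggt

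Among the arrest genes, Cdkn1a encodes p21, which binds and blocks cyclin-dependent kinases. Cdkn1a stood at 246, 225 and 190 CPM in IR-813 replicates 1 to 3 and at 392, 400.5 and 467 CPM in PSNPs replicates 1 to 3. The lowest PSNPs library was above the highest IR-813 library. Cdkn1a had a log2 fold change of 0.93 ± 0.12 (estimate ± SE, adjusted p = 0.00150), a rise of 1.90-fold. The window printed above for Cdkn1a holds the adjoining decamers 201 bases before the annotated start.

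Ccng1 encodes cyclin G1, an atypical cyclin that brings the phosphatase PP2A to MDM2. Its level was 429, 409 and 413 CPM with IR-813 and 978, 1009 and 943 CPM with PSNPs. The replicates of each group were close together, and the SE of Ccng1 was the smallest of the 10 genes. Ccng1 rose by 1.23 ± 0.08 (adjusted p = 0.000120), and the adjoining decamers begin 242 bases before its annotated start.

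Phlda3 encodes a small pleckstrin-homology protein that competes with the kinase AKT for membrane lipid and so lowers AKT activity. It was measured at 96.5, 86.9 and 87.0 CPM with IR-813 and at 201, 194 and 261 CPM with PSNPs. PSNPs replicate 3 was the highest library, and all PSNPs libraries were above all IR-813 libraries. Phlda3 rose by 1.28 ± 0.13 (adjusted p = 0.000582). A ribosomal protein pseudogene, Rpl11-ps12, overlaps the span of Phlda3 in the GRCr8 annotation. Counting used a different build, and its annotation and any use of strand are not stated. Whether reads of the pseudogene entered the Phlda3 count is therefore not known.

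Sesn1 encodes sestrin 1, a stress-induced protein that restrains the growth kinase complex mTORC1. Its values were 17.4, 17.1 and 22.1 CPM with IR-813 and 19.9, 19.8 and 22.9 CPM with PSNPs. IR-813 replicate 3 lay inside the PSNPs range. The log2 difference was 0.15 ± 0.14 (adjusted p = 0.422), with an interval of 2 SE on either side from −0.13 to 0.42, which leaves room for a rise smaller than that of any of the 5 genes that passed. Its window held a perfect decamer, as did those of Ccng1 and Cdkn1a.

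Mdm2, the ubiquitin ligase of the feedback loop, did not differ beyond the replicate spread. It stood at 158, 148 and 123 CPM with IR-813 and at 144, 165 and 150.3 CPM with PSNPs, with the groups fully interleaved. The log2 difference was 0.10 ± 0.11 (adjusted p = 0.511), and the interval of 2 SE ran from −0.13 to 0.33. That interval lies below the estimates for the 5 genes that rose.

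Among the death genes, Fas encodes the receptor for FAS ligand, which recruits the adaptor FADD and caspase-8. Fas was at 21.3, 23.5 and 29.7 CPM with IR-813 and at 62.1, 60.3 and 62.8 CPM with PSNPs. The PSNPs libraries were nearly equal, and each held more than the highest IR-813 library. Fas rose by 1.31 ± 0.13 (adjusted p = 0.000582), the largest of the 10 estimates, and 2.65% of all tested genes had a larger one. An uncharacterised locus, LOC120100158, overlaps Fas in the GRCr8 annotation. The gene of its ligand, Faslg, had between 1 and 10 counts per library and fell under the count filter.

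Bax encodes a BCL2 family protein that forms pores in the mitochondrial outer membrane. Bax was at 98.7, 93.6 and 92.8 CPM with IR-813 and at 137, 139 and 189 CPM with PSNPs. PSNPs replicate 3 was well above the other PSNPs libraries, all of which were above the IR-813 libraries. Bax rose by 0.70 ± 0.14 (adjusted p = 0.00688). Its length proxy was 0.332 of the median gene, in the class of short genes that were higher in PSNPs replicate 3, and its log2 fold change was 0.54 without that library and 0.42 with an offset for length, with adjusted p of 9.31e-05 and 0.00219.

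The BH3-only genes Bbc3, which encodes PUMA, and Pmaip1, which encodes NOXA, code for proteins that neutralise survival members of the BCL2 family. Bbc3 was at 27.7, 24.1 and 21.6 CPM with IR-813 and at 19.9, 18.6 and 26.5 CPM with PSNPs. PSNPs replicate 3 lay inside the IR-813 range while the other PSNPs libraries lay below it. Over all libraries Bbc3 did not pass (−0.18 ± 0.17, adjusted p = 0.424). Without PSNPs replicate 3 it was called lower, at −0.34 with an adjusted p of 0.0314, the lowest of 13 alternatives that reached 0.778, and 29.5% of tested genes were called lower in that fit.

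Pmaip1 was close to the limit of detection, with 13, 11 and 10 counts in the IR-813 libraries and 6, 10 and 3 counts in the PSNPs libraries. The groups overlapped only barely, PSNPs replicate 2 at 0.531 CPM lying between IR-813 replicates at 0.512 and 0.582 CPM. The log2 difference was −0.70 ± 0.42 (adjusted p = 0.226), with an interval of 2 SE from −1.54 to 0.15, which leaves room for a fall as well as a small rise. The value was −0.39 without PSNPs replicate 3, −1.22 without PSNPs replicate 2 and −1.08 with the length offset, none of which passed. The length proxy of Pmaip1 was 0.0717 of the median gene, the lowest of the 10.

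Tp53inp1 encodes a p53-induced nuclear protein that takes part in autophagy and cell death. It was at 20.5, 18.8 and 15.7 CPM with IR-813 and at 16.7, 17.7 and 5.01 CPM with PSNPs. PSNPs replicates 1 and 2 lay inside the IR-813 range and replicate 3 far below it, at 0.291 of the mean of the others. The log2 difference was −0.48 ± 0.42 (adjusted p = 0.386) over all libraries and −0.09 (adjusted p = 0.527) without PSNPs replicate 3. Its length proxy, 0.410 of the median gene, put it among the short genes, whose median was higher in that library, so Tp53inp1 went against the trend of its length class.

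**Figure D2:**
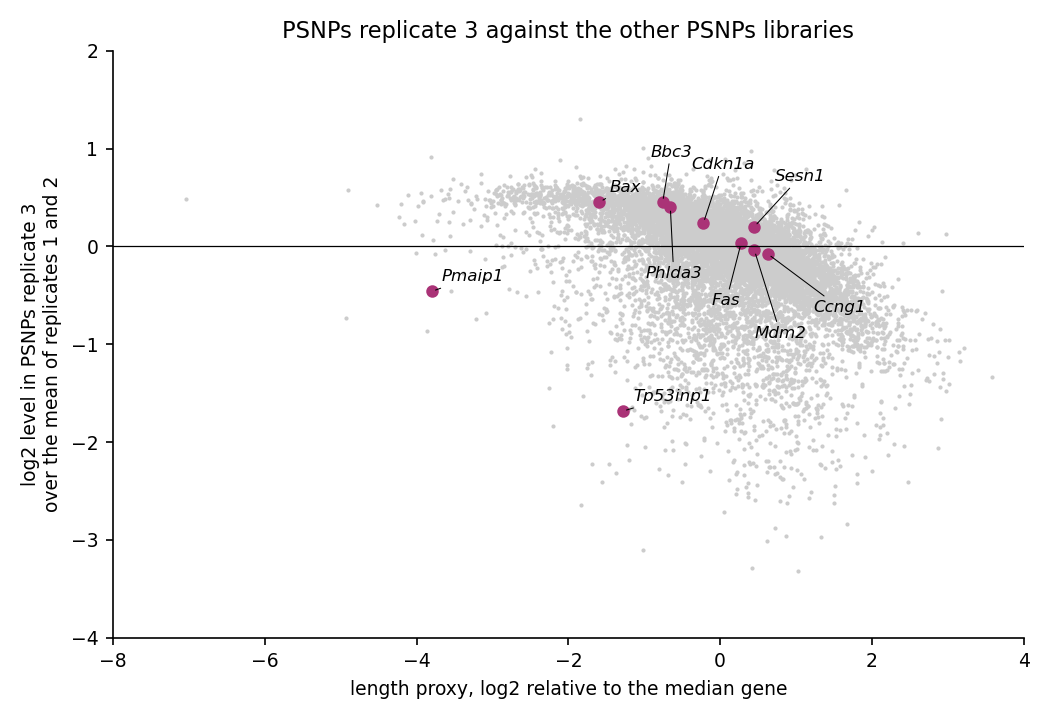
For each tested gene (grey) and each of the 10 p53 targets (labelled), the log2 level in PSNPs replicate 3 over the mean of PSNPs replicates 1 and 2, on CPM with 0.5 added, against the length proxy as log2 relative to the median gene. Bax, Bbc3 and Phlda3 lie with the short genes above 0, Fas, Mdm2 and Ccng1 near 0, and Tp53inp1 far below at −1.68.

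The authors' deposited log2 scale was read as a level per length, although its scaling is not stated. On that scale the 10 genes ranged widely in level with IR-813. Bax (7.14 ± 0.05, SD, n = 3), Ccng1 (7.06 ± 0.04) and Cdkn1a (6.98 ± 0.19) were the highest and neighbours within about their spread, followed by Phlda3 (6.14 ± 0.09) and Mdm2 (5.69 ± 0.19). Tp53inp1 (4.51 ± 0.19) and Bbc3 (4.40 ± 0.17) did not differ beyond their spread, and Fas (3.45 ± 0.22), Sesn1 (2.95 ± 0.18) and Pmaip1 (2.19 ± 0.12) were the lowest. With PSNPs, Ccng1 came first at 8.29 ± 0.03, before Cdkn1a (7.91 ± 0.17), Bax (7.83 ± 0.30) and Phlda3 (7.40 ± 0.27). Fas (4.70 ± 0.05) was then above Bbc3 (4.23 ± 0.29) and Tp53inp1 (3.89 ± 0.91), below which lay Sesn1 (3.09 ± 0.13) and Pmaip1 (1.62 ± 0.54), while Mdm2 was at 5.80 ± 0.10. Of the 5 genes that rose, 4 were already among the highest with IR-813, and Fas was the exception.

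All 5 rises kept their call under each of 13 processing alternatives, which included leaving out each library in turn, other scalings, DESeq2, the deposited log2 values and an offset for length. The log2 fold change ranged from 1.21 to 1.46 for Fas, from 1.12 to 1.36 for Phlda3, from 1.15 to 1.34 for Ccng1, from 0.83 to 1.01 for Cdkn1a and from 0.42 to 0.79 for Bax. Of all genes tested, 30.4% were called higher and 29.5% lower without PSNPs replicate 3, against 12% and 13.3% without IR-813 replicate 1 and 11.4% and 12.5% without IR-813 replicate 2. By library size alone the shares were 16.6% higher and 24.4% lower, and with the length offset 24.0% and 22.8%. They were 19.5% and 19.5% with DESeq2, 19.9% and 20.4% with limma on the deposited log2 values, and 17.4% and 18.2% with the replicate number as a block.

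**Figure D3:**
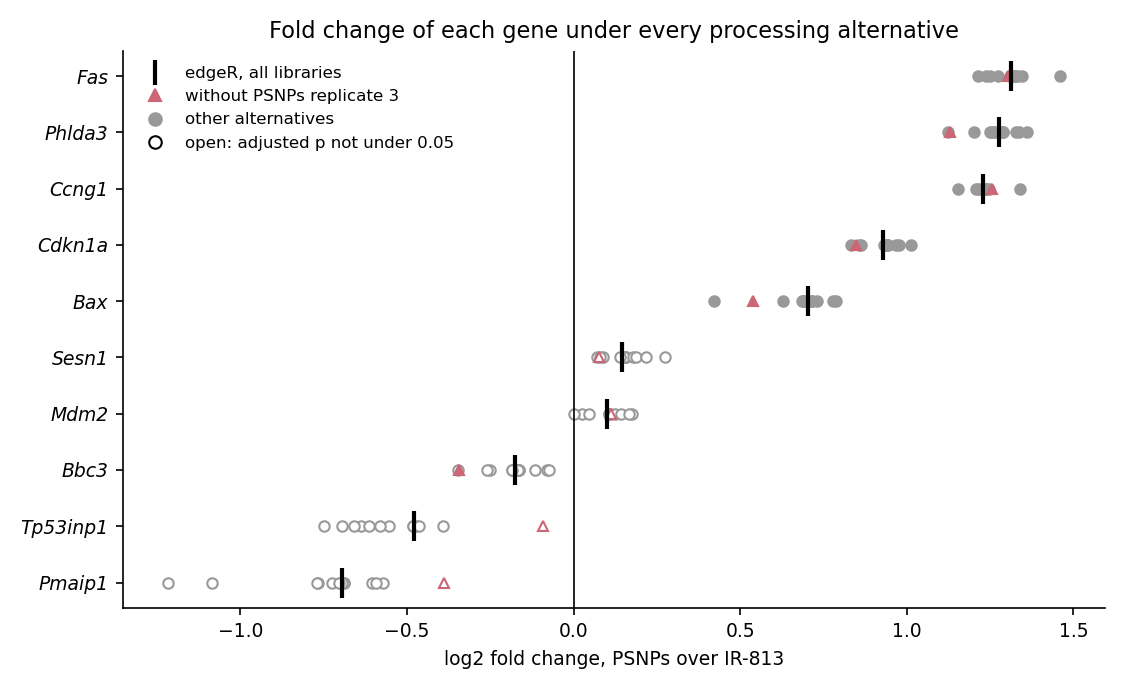
Log2 fold change (PSNPs over IR-813) of each of the 10 genes from edgeR with all libraries (black bar), without PSNPs replicate 3 (triangle) and under the other alternatives (circles), with open symbols where the adjusted p was not under 0.05. The 5 genes that rose stay at or above 0.42, and Tp53inp1 moves from −0.48 to −0.09 without PSNPs replicate 3.

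Of 8 tested paralogues of the 10 genes, 0 were higher and 4 were lower, beside 20.9% and 20.1% of all tested genes. By edgeR's test the count of higher paralogues was also 0 at an unadjusted p under 0.05, and DESeq2 gave 0 as well, while leaving out PSNPs replicate 3 gave 2 and the length offset gave 1. The 4 that fell numbered 2 without IR-813 replicate 1 or 2. Cdkn1c, which encodes the CDK inhibitor p57, stood at 78.0, 82.8 and 94.6 CPM with IR-813 and at 8.23, 9.23 and 14.7 CPM with PSNPs. It fell by 2.99 ± 0.23 on the log2 scale (adjusted p = 0.000195), in the family in which Cdkn1a rose, and Cdkn1b, which encodes p27, was at −0.15 ± 0.08 (adjusted p = 0.145). Cdkn1b was called lower with the length offset (−0.24, adjusted p = 0.0290). Whether Cdkn1a and its paralogues differ in their change was not tested.

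Sesn2, a sestrin gene that is also a target of the stress factor ATF4, was at 232, 212 and 156 CPM with IR-813 and at 41.9, 41.3 and 32.7 CPM with PSNPs. Every PSNPs library was far below every IR-813 library, and Sesn2 fell by 2.37 ± 0.18 (adjusted p = 0.000187), while Sesn1 did not pass. Sesn3 was at −0.11 ± 0.49 (adjusted p = 0.868), with PSNPs replicate 3 at 25.2 CPM and the other PSNPs libraries at 104 and 118 CPM, and without that library its value was 0.32 (adjusted p = 0.00632).

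Mdm4, the MDM2 relative that masks the activation domain of p53, was at 40.1, 35.2 and 30.3 CPM with IR-813 and at 19.0, 22.8 and 7.62 CPM with PSNPs. It fell by 1.10 ± 0.36 (adjusted p = 0.0471), but did not pass without any 1 of IR-813 replicates 1, 2 and 3 or PSNPs replicate 1, with adjusted p from 0.00226 to 0.139 over 13 alternatives. Phlda1 fell by 0.72 ± 0.17 (adjusted p = 0.0150), with adjusted p of 0.0599 and 0.0611 where IR-813 replicate 1 or 2 was left out and from 0.00161 upward under the others. Phlda2 had between 0 and 5 counts per library and was under the filter. Ccng2 (0.07 ± 0.11, adjusted p = 0.617, and −0.0049 by library size alone) and Tp53inp2 (0.15 ± 0.09, adjusted p = 0.221) did not pass, and Tp53inp2 passed without PSNPs replicate 3 (0.20, adjusted p = 0.0390) and with the length offset (0.36, adjusted p = 0.0130).

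**Figure D4:**
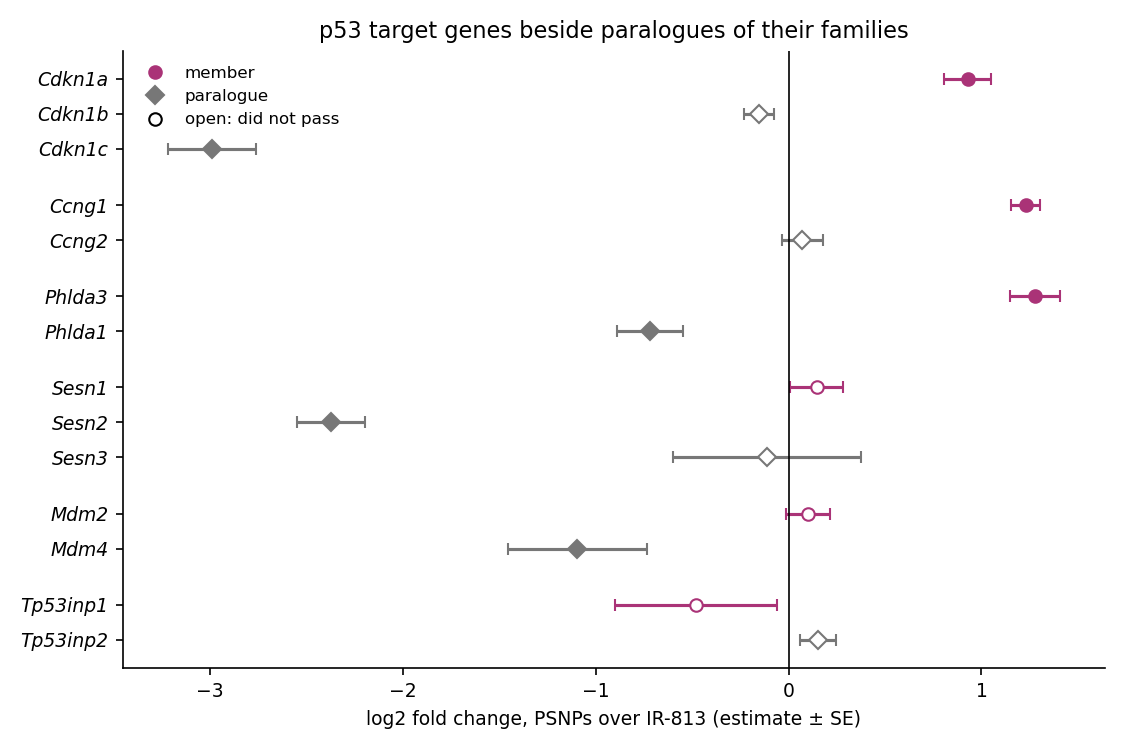
Log2 fold change (estimate ± SE, PSNPs over IR-813) of 6 of the p53 target genes (circles) and of their tested paralogues (diamonds), grouped by family, with open symbols for genes that did not pass. Cdkn1a and Phlda3 lie to the right of 0 and Cdkn1c and Phlda1 to the left.

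Of 17 listed genes of the p53 regulatory circuit, 12 were in the table and tested, with 2 higher, 2 lower and a median of −0.06, beside 20.9% and 20.1% called over all tested genes. The higher count was 3 and the lower 5 without PSNPs replicate 3. Without any 1 IR-813 library or PSNPs replicate 1, both counts were 1. Cdkn2a, the locus of the senescence proteins p16 and ARF, of which ARF inhibits MDM2, was at 4.92, 5.45 and 3.89 CPM with IR-813 and at 27.6, 27.1 and 37.3 CPM with PSNPs. It rose by 2.69 ± 0.19 (adjusted p = 0.000160), and gene-level counts do not separate its transcripts. Crebbp, a p53 acetyltransferase gene, fell by 0.57 ± 0.12 (adjusted p = 0.00999) but was at −0.11 (adjusted p = 0.621) with the length offset.

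Other p53 targets moved in both directions. Of 17 tested targets of arrest, repair and metabolism, 4 rose and 7 fell (median −0.27), and of 7 tested targets of death 1 rose and 0 fell (median 0.20), with 2 lower at an unadjusted p under 0.05 in edgeR and 0 lower in DESeq2. These 24 genes together gave 5 higher and 7 lower calls, or a median of −0.21, beside the background of 20.9% higher and 20.1% lower. Gadd45a, a stress gene of growth arrest and repair, was at 339, 312 and 233 CPM with IR-813 and at 88.2, 98.7 and 114 CPM with PSNPs, and fell by 1.55 ± 0.16 (adjusted p = 0.000631). Plk3, a polo-like kinase gene, fell by 1.05 ± 0.18 (adjusted p = 0.00448). Gdf15, which encodes a secreted stress cytokine, fell by 0.91 ± 0.22 (adjusted p = 0.0162), with adjusted p of 0.0629, 0.0623 and 0.0534 without IR-813 replicate 1, IR-813 replicate 2 or PSNPs replicate 1, and 0.000781 at the lowest. Btg2, an antiproliferative gene, was at 43.3, 45.0 and 49.8 CPM with IR-813 and at 68.3, 63.1 and 72.7 CPM with PSNPs, and rose by 0.56 ± 0.10 (adjusted p = 0.00451). Ei24, an endoplasmic reticulum protein gene, rose by 0.55 ± 0.07 (adjusted p = 0.00121). The count of targets of arrest, repair and metabolism that fell was 3 without IR-813 replicate 1, IR-813 replicate 2 or PSNPs replicate 1, and that of targets that rose was 2 without IR-813 replicate 1 or 2. Of the targets of death, 2 were higher without PSNPs replicate 3 and 1 was lower without IR-813 replicate 3 or PSNPs replicate 2.

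**Figure D5:**
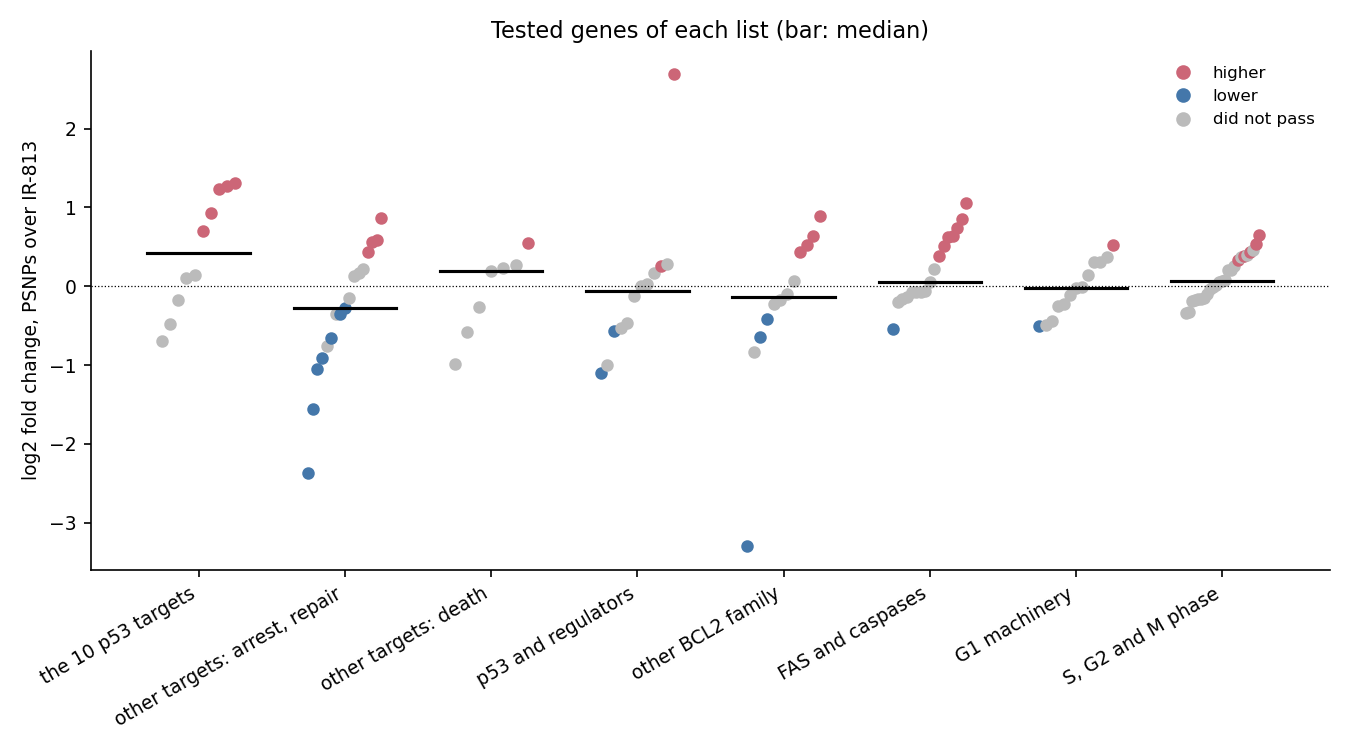
Log2 fold change (PSNPs over IR-813) of every tested gene in the 10 p53 targets and in 7 lists of related genes, coloured by call, with a bar at each list's median. The 10 targets hold 5 higher and 0 lower genes, and the other targets of arrest and repair hold 4 higher and 7 lower.

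In the rest of the BCL2 family, 4 of 12 tested genes were higher and 3 lower, with a median of −0.14, beside 20.9% and 20.1% of all tested genes. The BH3-only gene Hrk was at 13.6, 13.1 and 10.3 CPM with IR-813 and at 1.47, 1.27 and 0.991 CPM with PSNPs, and fell by 3.29 ± 0.20 (adjusted p = 0.000114). Hrk is mainly a neuronal gene, and the 9 neuron markers summed to less with PSNPs, as given above. Whether the fall of Hrk is part of that shift was not tested. Bok, a relative of Bax, rose by 0.90 ± 0.15 (adjusted p = 0.00338), and Bcl2l11, which encodes the BH3-only protein BIM, by 0.64 ± 0.11 (adjusted p = 0.00404). Bmf fell by 0.64 ± 0.21 (adjusted p = 0.0479), a call lost under 5 of 13 alternatives, among them leaving out any IR-813 library or PSNPs replicate 2, with adjusted p from 0.00777 to 0.139. The survival gene Bcl2l1 fell by 0.41 ± 0.10 (adjusted p = 0.0159), with a loss of the call without IR-813 replicate 1, IR-813 replicate 2, PSNPs replicate 1 or PSNPs replicate 2 and adjusted p from 0.000757 to 0.0724. Mcl1 (−0.23 ± 0.13, adjusted p = 0.182) and Bcl2 (−0.84 ± 0.46, adjusted p = 0.186) did not pass, and Bcl2 was called lower without PSNPs replicate 3 (−0.40, adjusted p = 0.0294). Counts of this family were 2 higher by library size alone and without any 1 IR-813 library, 1 lower without IR-813 replicate 1, IR-813 replicate 2 or PSNPs replicate 2, and 5 lower without PSNPs replicate 3.

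In the list of FAS signalling and caspases, 7 of 17 tested genes were higher and 1 lower, with a median of 0.05, beside 20.9% and 20.1% of all tested genes. The list also holds genes of other death receptors and inhibitors of apoptosis, so not all of it lies downstream of Fas or Bax. Fadd, the gene of the FAS adaptor, did not pass (−0.08 ± 0.24, adjusted p = 0.817) and was named with its value known. The death receptor adaptor gene Tradd rose by 1.06 ± 0.12 (adjusted p = 0.000877) and Birc3, which encodes an inhibitor of apoptosis, by 0.85 ± 0.16 (adjusted p = 0.00641). Casp8, the caspase recruited by FAS, rose by 0.51 ± 0.17 (adjusted p = 0.0460), a call lost under 6 of 13 alternatives, among them leaving out any IR-813 library or PSNPs replicate 1, with adjusted p from 0.0265 to 0.149. The count of higher genes was 4 without IR-813 replicate 1 or 2, and 2 genes were lower without PSNPs replicate 3. RNA levels of these genes do not measure caspase activity or death.

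Of 13 G1 cyclins, kinases and pocket proteins 1 rose and 1 fell, with a median of −0.02, beside 20.9% higher and 20.1% lower over all tested genes. Without PSNPs replicate 3 the counts were 3 and 2, and without IR-813 replicate 2 they were 0 and 1. Ccnd1, which encodes cyclin D1, rose by 0.52 ± 0.12 (adjusted p = 0.0124, and 0.0530 where IR-813 replicate 2 was left out, against 0.000362 at the lowest), and Cdk2 fell by 0.51 ± 0.10 (adjusted p = 0.00677). Of 25 genes of the S, G2 and M phases that p53 lowers through p21 and the DREAM complex, 5 rose and 0 fell, with a median of 0.07, beside 20.9% and 20.1% of all tested genes. In edgeR 1 of them was lower at an unadjusted p under 0.05, and in DESeq2 0 were. Ccnb2 rose by 0.65 ± 0.11 (adjusted p = 0.00448) and Rrm2 by 0.53 ± 0.08 (adjusted p = 0.00314). Cdk1 rose by 0.43 ± 0.14 (adjusted p = 0.0393), a call lost under 5 of 13 alternatives, among them leaving out any 1 IR-813 library, with adjusted p from 0.00304 to 0.127. The proliferation marker gene Mki67 did not pass (−0.33 ± 0.27, adjusted p = 0.354) and was at 0.02 with the length offset. The count of S, G2 and M phase genes that rose was 2 by library size alone, where 2 fell, and 2 without IR-813 replicate 1 or 2, and 3 fell without PSNPs replicate 3.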

How the data were processed

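The authors deposited a table of raw read counts by gene symbol for 6 libraries, and log2 values in a separate file for each. Per the submitters' processing notes, bcl2fastq and the build mRatBN7.2 were used. The aligner, the counter, the annotation and any use of strand were not stated. Groups and replicate numbers came from the sample titles, and each con or NPS column was matched to the title of the sample whose own deposited file carries that column name. Counts were filtered with filterByExpr (11679 of 16876 genes kept), scaled by TMM and tested in edgeR 4.0.16 (R 4.3.3) by the quasi-likelihood test with treatment as the only term. The SE is the log2 fold change divided by the square root of F. On counts simulated with the same dispersion for every gene and 200 changed genes among 11679, this test recovered 89.8% of changes of 1 on the log2 scale. That share does not describe genes of wider spread, such as Pmaip1 and Tp53inp1 with an SE of 0.42. An exact test of 3 against 3 cannot go below p = 0.1 and was not used. The labels do not state how the deposited log2 values were scaled. These values were unlogged and a pseudocount of 1 was subtracted. Their ratio to the count was then a gene factor times a library factor, within 0.05 log2 units for at least 99.0% of 10559 genes. The gene factor served as the length proxy and was not compared with annotated lengths. Alternatives were other scalings, no filter, DESeq2 1.42.0, limma 3.58.1 on the deposited log2 values, a replicate block, each library left out and, chosen after seeing the data, an offset that removed each library's trend with the length proxy. The 10 genes, the lists and the rule for named genes were chosen with earlier results of these data known. The rule named the 10 genes, their paralogues, 15 pathway and 15 marker genes, and in each list the 3 called genes of largest change that reached 5 CPM in one of the groups and whose groups did not overlap. Of the listed genes, Atr, Tp53bp1, Pml, Ep300, Sirt1, Ercc5 and Eda2r were not analysed here, and Cop1 was read under its synonym Rfwd2. Among the list genes, 2 that the rule names are counted in their lists and not reported here.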

Additional observations from a re-analysis of the deposited data

How the results depend on the processing

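Of the 10 p53 targets, 9 kept their direction and their call under all 13 alternatives, and Bbc3 ranged from −0.34 to −0.0747 over the libraries left out, so that 0 or 1 of the 10 were called lower. Leaving out libraries gave 1339 to 3591 higher genes in all (11.4% to 30.4% of those tested) and 1473 to 3478 lower (12.5% to 29.5%). The list counts stand beside these shares, with 1 to 3 higher and 1 to 5 lower p53 regulators. Other targets of arrest, repair and metabolism gave 2 to 6 higher and 3 to 8 lower, other targets of death 1 to 2 higher and 0 to 1 lower, and paralogues 0 to 2 higher and 2 to 4 lower. Other BCL2 family genes gave 2 to 4 higher and 1 to 5 lower, FAS and caspase genes 4 to 8 higher and 1 to 2 lower, G1 genes 0 to 3 higher and 1 to 2 lower, and S, G2 and M phase genes 2 to 6 higher and 0 to 3 lower. With library size alone, 1 p53 regulator, 2 other BCL2 family genes and 2 S, G2 and M phase genes were higher, and 1 other target of death, 2 G1 genes and 2 S, G2 and M phase genes were lower. With DESeq2 and with limma on the deposited log2 values 1 p53 regulator was higher. With the length offset, 2 other targets of death, 1 paralogue and 2 G1 genes were higher. With the same offset 2 FAS and caspase genes and 2 G1 genes were lower. The shares of all tested genes called under these settings are given above. Among named genes, 34 of 58 kept direction and call throughout. Reversals were all of genes that did not pass in the fit of all libraries. They were Ccng2 (−0.0049) and Aqp4 (−0.00337) with library size alone, and Mki67 (0.0205) and Slc1a3 (0.16) with the length offset. Over the libraries left out they were Sesn3 (−0.46 to 0.32), Aqp4 (−0.0937 to 0.27), Slc1a3 (−0.0859 to 0.0655) and Col3a1 (−0.0155 to 0.90). Of these, Sesn3 was called higher without PSNPs replicate 3 (adjusted p = 0.00632). The cause was not tested.

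Same-numbered libraries of the 2 groups correlated in their deviations from the group means at −0.006, 0.014 and 0.121, not every library correlated best with its own number, and the numbers were not taken as pairs. With the replicate block 2035 genes were higher and 2124 lower over all genes, the same 5 of the 10 targets were higher, 1 p53 regulator and 3 S, G2 and M phase genes were higher, and 1 other target of death was lower. Scaling by library size alone called 1943 genes higher and 2852 lower, in place of 2439 and 2351. Depth limited the measurement of Pmaip1, Faslg and Phlda2.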

Other observations

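Adjoining p53 decamers with at most 1 mismatch were present in 14 of the 33469 RefSeq promoter windows, and 4 of the genes behind them were tested. Besides Ccng1 and Cdkn1a these were Gtse1 and Rnps1, chosen for naming with their values already known. Gtse1, a gene of the G2 and S phases whose protein binds p53, averaged 40.2 ± 1.52 CPM in the IR-813 libraries and 90.1 ± 3.27 CPM in the PSNPs libraries (SD, n = 3 each), a rise of 1.16 ± 0.08 on the log2 scale (edgeR, adjusted p = 0.000152). Rnps1, an RNA-binding splicing protein gene, was at 271 ± 8.61 and 249.5 ± 32.9 CPM and did not pass (−0.12 ± 0.11, adjusted p = 0.395). So 3 of these 4 genes were higher, but Ccng1 and Cdkn1a had been chosen as p53 targets with earlier results of these data known. The count is therefore not set beside the share of all tested genes. Outside that choice 2 genes were tested, of which Gtse1 was higher and Rnps1 did not pass. These are too few for a statement about windows of this kind.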
